A study of Mus musculus with 6 samples.

Results

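The Zfp series holds mouse genes whose symbol is Zfp followed by a number, a naming series for zinc finger proteins. They were taken here as protein-coding genes of that series with a mean CPM of 5 or more over all 6 libraries, CPM being counts scaled to a column total of 1e6, leaving out Zfp36 and Zfp706. Of 365 protein-coding Zfp genes in the table of 46983 genes, 208 met the rule, 155 lay under the mean CPM of 5, and 2 were the excluded genes. All 208 members were among the 16115 genes tested. Members were thus chosen by their mean CPM, which is given as a description. The series compares macrophages of 2 genotypes, which the rule did not use, but the members were proposed with results of that comparison known.

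The RNA came from bone marrow derived macrophages, cells that grow out of marrow in medium carrying macrophage growth factor. Femur marrow of C57BL/6 mice was used, either wild-type (WT) or with AEG-1 knocked out (AEG-1 KO), and each genotype gave 3 libraries. Both were cultured for 7 days in medium with 20% L929 conditioned medium and 10% serum and were left untreated. The gene for AEG-1, short for astrocyte elevated gene-1, is Mtdh. The labels give no age or sex, do not say whether the libraries of a genotype came from separate animals or cultures, and do not say which part of Mtdh was removed, so that p-values speak only for the spread among 3 libraries a genotype, which can be technical.

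Most C2H2 zinc finger proteins bind DNA through a row of small folds, each held by a zinc ion between a pair of cysteines and a pair of histidines. Many also carry a KRAB domain, which recruits the corepressor TRIM28 and with it the histone methyltransferase SETDB1 and heterochromatin proteins; a known task of these KRAB proteins is to silence transposable elements and to hold imprints. The genes have spread by tandem duplication and stand in clusters, and few of them have a known role in macrophages. A minority of the symbols name proteins with other work, such as RNA binding, spindle assembly or ubiquitin transfer.

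In translated GENCODE coding sequences, the C2H2 finger spacing was found 0 to 36 times per member, with a median of 10, and the highest count was in Zfp142. The pattern was absent from 4 members, Zfp703, Zfp935, Zfp839 and Zfp330. A KRAB pattern was found in 104 members and not in the other 104. The pattern search can miss diverged boxes. Members lay on 20 chromosomes, with 47 on chromosome 7, 30 on chromosome 17 and 16 on chromosome 13, and 122 lay within 500 kb of another member. Those with a KRAB pattern had a median of 11.5 fingers and a transcript GC content of 40.6%, against 7.5 fingers and 49.7% in the others.

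RefSeq promoter windows of 300 bases (250 before to 50 after the start, GRCm38.p6) were matched by symbol for 173 members. Windows of 3 called members that were higher in AEG-1 KO and of the 1 that was lower are printed to show how the CG content of such promoters varies; capitals mark each CG, and the fall and the rises are described further on. The windows are chr7:12478055-12478354 on the plus strand for Zfp606, chr13:67360523-67360822 on the minus strand for Zfp953, chr17:22867085-22867384 on the minus strand for Zfp945 and chr17:32809882-32810181 on the minus strand for Zfp811.
Zfp606: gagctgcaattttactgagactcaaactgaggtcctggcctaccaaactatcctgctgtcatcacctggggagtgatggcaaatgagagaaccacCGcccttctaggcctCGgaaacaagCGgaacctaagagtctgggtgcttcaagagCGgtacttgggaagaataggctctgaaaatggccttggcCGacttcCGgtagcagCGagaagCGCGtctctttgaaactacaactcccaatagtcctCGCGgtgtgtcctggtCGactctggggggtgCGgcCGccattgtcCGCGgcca
Zfp953: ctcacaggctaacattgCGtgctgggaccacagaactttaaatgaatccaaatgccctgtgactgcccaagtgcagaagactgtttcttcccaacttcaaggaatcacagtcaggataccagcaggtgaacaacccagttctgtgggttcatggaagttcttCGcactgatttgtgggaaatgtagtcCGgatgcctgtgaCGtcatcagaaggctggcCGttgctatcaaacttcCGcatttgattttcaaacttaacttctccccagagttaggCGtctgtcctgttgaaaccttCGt
Zfp945: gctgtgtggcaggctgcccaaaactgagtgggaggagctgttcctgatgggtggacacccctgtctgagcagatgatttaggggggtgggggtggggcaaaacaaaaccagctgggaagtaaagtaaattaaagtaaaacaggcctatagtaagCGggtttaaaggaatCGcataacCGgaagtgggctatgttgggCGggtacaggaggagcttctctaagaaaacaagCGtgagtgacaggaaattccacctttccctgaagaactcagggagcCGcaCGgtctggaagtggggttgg
Zfp811: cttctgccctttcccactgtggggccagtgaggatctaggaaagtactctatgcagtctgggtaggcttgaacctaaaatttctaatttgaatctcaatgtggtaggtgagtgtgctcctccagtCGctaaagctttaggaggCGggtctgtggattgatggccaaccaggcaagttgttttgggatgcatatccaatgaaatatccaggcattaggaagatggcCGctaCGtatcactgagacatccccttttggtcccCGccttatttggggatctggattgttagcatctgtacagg
The windows hold 16, 8, 7 and 5 CG in that order. Over the 106 windows of members with a KRAB pattern the median was 11 CG, over the 107 windows of the other members it was 21, and over 9607 windows of other tested genes at 5 CPM or more it was also 21. The median over all member windows was 16 and over all 32851 windows 7. The ETS core CCGGAAG, searched on both strands, was in 22.1% of member windows, 19.5% of windows of those other genes and 8.86% of all 32851 windows. Of the windows printed, those of Zfp606 and Zfp945 hold it. The core ACTACAA, part of the site known for ZNF143 and its mouse counterpart Zfp143, was in 5.16% of member windows, 4.56% of those of the other genes at 5 CPM or more and 3.24% of all, and among the 4 printed it is in that of Zfp606. For TATAAA these shares were 5.16%, 6.68% and 13.6%. For GCATGCG, from the NRF1 site, they were 7.04%, 6.86% and 3.58%, and for GATGGCG, from the YY1 site, 6.1%, 7.27% and 3.49%. For each of the 5 motifs the members stood nearer to the other genes at 5 CPM or more than to all windows. No pair of these motifs shares its full letters, and a match describes letters in a window only.

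Total counts ran from 42548170 to 58947230 per library. Mtdh had 11560 to 14849 reads in the WT libraries and 15 to 22 in the AEG-1 KO libraries, so every library carried the level of its label. The summed CPM of 14 macrophage markers was 20012 to 20438 in WT and 20932 to 21285 in AEG-1 KO, far above those of monocyte and progenitor (98.2 to 106 in WT and 122 to 129 in AEG-1 KO), neutrophil (570 to 585 and 639 to 694) and stromal and endothelial markers (11.6 to 13.7 and 16.1 to 18.1). Of tested members of these last 3 lists, 4 of 9, 7 of 13 and 3 of 8 were called higher and 0, 2 and 0 lower. Of the 14 macrophage markers 4 were called higher and 1 lower, and of 6 tested B cell markers 1 and 1. The shares over all genes tested were 3.31% higher and 3.04% lower. B cell markers were at 78.4 to 84 and 66.7 to 72.8 and T and NK cell markers at 11.2 to 11.8 and 12.2 to 13.8. No marker of these 6 lists was at 0 in all libraries. Their part in the results on Zfp genes was not tested, and in bulk RNA fewer cells of a type and less RNA per cell cannot be told apart. WT replicate 3 and AEG-1 KO replicate 3 stood apart from their groups in how reads fell across GC content, and results are given with and without them.

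Setting AEG-1 KO against WT asks how transcript levels differ without AEG-1. Most Zfp members had slightly higher values in AEG-1 KO, but few differed enough to be called singly. The log2 fold change of AEG-1 KO over WT was above 0 in 177 of 208 members, or 85.1%, against 53.1% of all genes tested. The median over members was 0.11, a fold of 1.08, with quartiles of 0.04 and 0.19 and a range of -0.34 to 0.38. The median over all tested genes was 0.01, and over the 10417 other genes at 5 CPM or more it was 0.00. In the edgeR quasi-likelihood test with Benjamini-Hochberg adjustment over all genes, 8 members were called higher, or 3.85%, against 3.31% of all genes, and 1 member lower, or 0.481%, against 3.04%. Both directions together made 9 members, or 4.33%, against 6.35%. The share called higher was therefore near the background, and 199 members did not pass.

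At an unadjusted edgeR p under 0.05, 58 members (27.9%) lay higher and 3 (1.44%) lower, against 11.2% and 10.3% of all genes. The 3 AEG-1 KO libraries all lay above the 3 WT libraries in 51 members (24.5%, against 13.9% of all genes) and all below in 5 (2.4%, against 12.9%). Values of 0.1 or more on the log2 scale were found in 114 members (54.8%, against 28.7%) and of -0.1 or less in 6 (2.88%, against 23.5%). No member reached an absolute log2 fold change of 0.5, which 6.22% of all genes did. The median standard error of a member was 0.08 on the log2 scale, so that a typical member's difference was 1.49 times its own error. These counts and medians describe the members; no test was made over the list, whose members were chosen with results known.

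**Figure D1:**
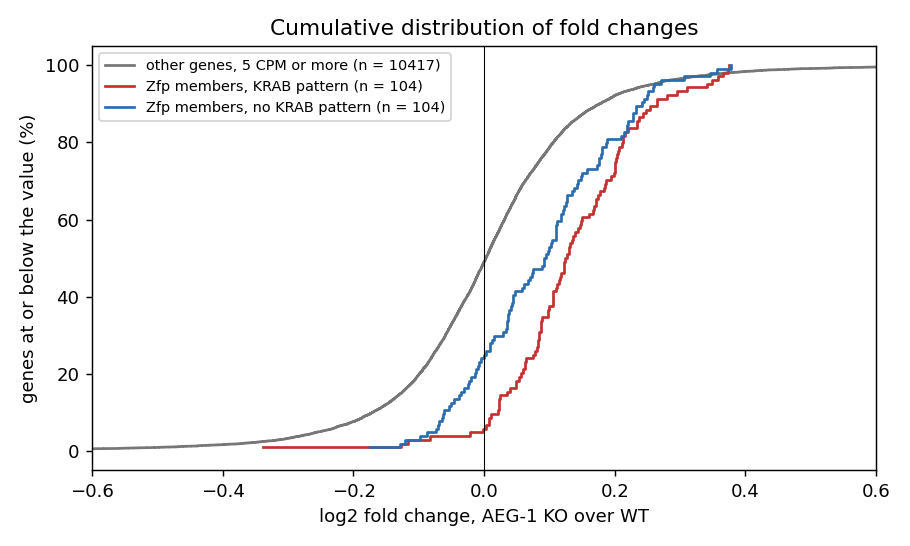
Cumulative share of genes (percent, y axis) by log2 fold change of AEG-1 KO over WT (x axis, cropped at -0.6 and 0.6), for 104 members with a KRAB pattern (red), 104 without (blue) and 10417 other genes at 5 CPM or more (grey). The red and blue curves lie to the right of the grey one over most of the range: 98 of 104 and 79 of 104 members are above 0, against 51% of the other genes.

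Of the members called higher, Zfp608, a large protein related to Zfp609, had the smallest p. Its level was 15.5, 14.8 and 14.8 CPM (TMM-normalized, here and in all CPM of named genes below) in WT replicates 1 to 3 and 19.5, 18.7 and 20.3 CPM in AEG-1 KO replicates 1 to 3. These groups did not overlap, and the log2 fold change was 0.38 ± 0.06 (SE, edgeR adjusted p = 0.00646). Zfp608 lies on chromosome 18 and overlaps an exon of a gene on the other strand. Zfp263, a DNA-binding protein with 9 fingers on chromosome 16 (3744093 to 3750790, GRCm38), had 116, 108 and 117 CPM in WT against 138, 138 and 129 CPM in AEG-1 KO. All 3 AEG-1 KO libraries were higher, with a log2 fold change of 0.25 ± 0.05 (SE, edgeR adjusted p = 0.0183). At 27.5 CPM per kilobase of exon it was the most abundant called member by length.

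Zfp606, a KRAB gene with 13 fingers on chromosome 7 (12478293 to 12496235), had 6.65, 6.31 and 6.59 CPM in WT against 8.59, 8.71 and 8.01 CPM in AEG-1 KO. Its log2 fold change was 0.37 ± 0.08 (SE, edgeR adjusted p = 0.0211). Zfp61, also a KRAB gene of chromosome 7 (24291039 to 24301232), had 6.07, 6.82 and 7.05 CPM in WT against 9.01, 8.15 and 8.55 CPM in AEG-1 KO. It rose by a log2 fold change of 0.37 ± 0.09 (SE, edgeR adjusted p = 0.039). The third called member with a KRAB pattern that rose was Zfp953 on chromosome 13 (67339306 to 67360605). It had 7.03, 7.66 and 8.3 CPM in WT against 9.76, 10.4 and 9.57 CPM in AEG-1 KO (log2 fold change 0.37 ± 0.08 SE, edgeR adjusted p = 0.0318). Zfp953 shares near-identical stretches with 2 genes and overlaps a gene on its own strand, which can be among these, so its reads are uncertain.

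Zfp945, with 18 fingers on chromosome 17 (22846697 to 22867134), had 13.3, 13.9 and 14.6 CPM in WT against 18, 17.4 and 16.3 CPM in AEG-1 KO (log2 fold change 0.31 ± 0.07 SE, edgeR adjusted p = 0.0281). Zfp646, with 27 fingers on chromosome 7 (127876221 to 127885996), had 65.8, 67.4 and 60.7 CPM in WT against 74.6, 74.8 and 77.5 CPM in AEG-1 KO (log2 fold change 0.23 ± 0.05 SE, edgeR adjusted p = 0.0333). Zfp646 overlaps a gene on the other strand and shares a near-identical stretch with 1 gene, which can be the same gene. Strand use in counting is not given in the sources used here. Zfp644, known for bringing the H3K9 methyltransferases G9a and GLP to chromatin, had 39.7, 40 and 43 CPM in WT against 47.2, 48.7 and 45.9 CPM in AEG-1 KO (log2 fold change 0.21 ± 0.05 SE, edgeR adjusted p = 0.0476). It lies on chromosome 5 (106616739 to 106697287), overlaps a gene on its own strand and shares a near-identical stretch with 1 gene, which can be the same gene.

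These calls were narrow. Zfp608 passed whichever library was left out (edgeR adjusted p from 0.0129 to 0.0408). Zfp606 and Zfp263 each lost the call without WT replicate 2 or either of AEG-1 KO replicates 1 and 2 (largest edgeR adjusted p = 0.114 and 0.124). Zfp945 lost it without 4 of the 6 libraries (largest edgeR adjusted p = 0.136), Zfp953, Zfp61 and Zfp644 without 5 (largest edgeR adjusted p = 0.158, 0.121 and 0.233), and Zfp646 whichever of the 6 was left out (edgeR adjusted p from 0.0508 to 0.116). Zfp644 was called in 3 of 10 other fits of all libraries, and not with RLE, upper-quartile or no scaling factors, with no filter (edgeR adjusted p = 0.103) or with the stricter filter (edgeR adjusted p = 0.0524). The number of members called higher was 4, 1 and 16 without WT replicates 1, 2 and 3, and 1, 1 and 5 without AEG-1 KO replicates 1, 2 and 3. In the same order, the genes called higher over all genes tested numbered 445, 218 and 519, and 332, 184 and 301. With all 6 libraries they numbered 533.

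The single member called lower was Zfp811, a KRAB gene with 13 fingers on chromosome 17 (32795676 to 32809931). It had 87.5, 85 and 95.1 CPM in WT replicates 1 to 3 and 79.7, 66.5 and 65.3 CPM in AEG-1 KO replicates 1 to 3. AEG-1 KO replicate 1 lay nearest to WT, and the groups did not overlap. Zfp811 fell by 0.34 ± 0.08 on the log2 scale (SE, edgeR adjusted p = 0.0386), and the call was lost without any 1 of WT replicates 2 and 3 and AEG-1 KO replicates 2 and 3 (largest edgeR adjusted p = 0.166). Zfp811 has no near-identical copy and overlaps no other gene. Its 5 member neighbours within 500 kb, Zfp871, Zfp799, Zfp870, Zfp472 and Zfp952, had log2 fold changes of 0.02 to 0.19, and none was called. Per kilobase of exon Zfp811 stood at 22.5 CPM, among the more abundant members.

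The other members with negative values and the smallest p were not called. Zfp821 had 42.5, 39.8 and 38.5 CPM in WT against 36.3, 35.4 and 35.3 CPM in AEG-1 KO, with no overlap between the groups (log2 fold change -0.17 ± 0.05 SE, edgeR adjusted p = 0.0887). Zfp217, which works with corepressor complexes at promoters, had 125, 122 and 119 CPM in WT against 115, 110 and 111 CPM in AEG-1 KO (log2 fold change -0.12 ± 0.04 SE, edgeR adjusted p = 0.134). Both passed, on the lower side, when a trend on length and GC content was removed (edgeR adjusted p = 0.0367 and 0.0187). Zfp143, an activator that binds many promoters, Zfp207, which serves spindle assembly, and Zfp672 had log2 fold changes of -0.13, -0.09 and -0.10 without passing (edgeR adjusted p = 0.293, 0.311 and 0.402). Zfp207 also passed with the trend removed (log2 fold change -0.11, edgeR adjusted p = 0.0253).

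**Figure D2:**
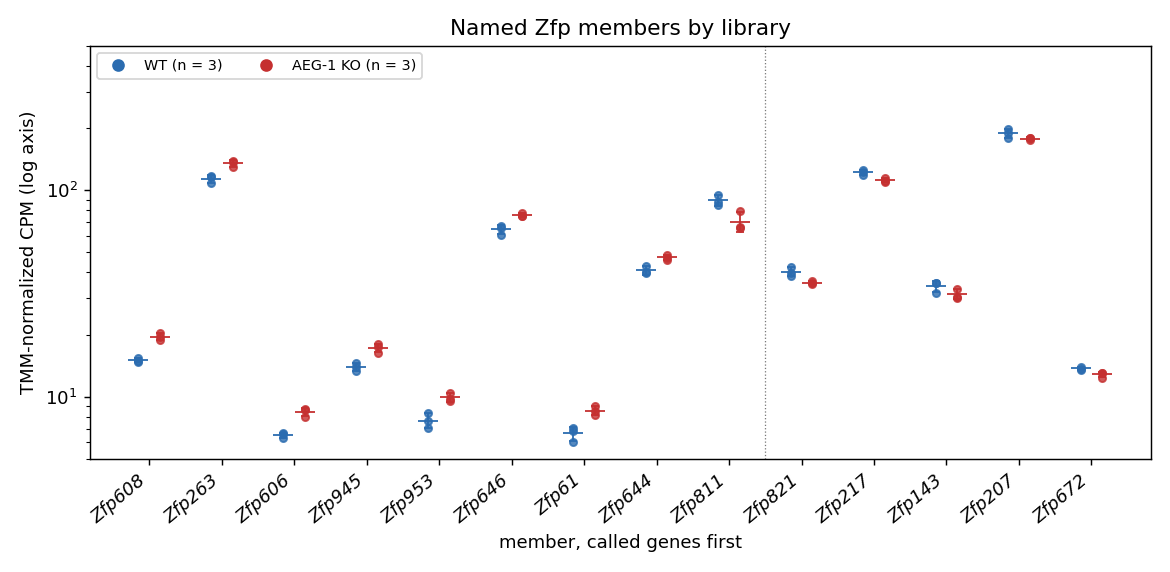
TMM-normalized CPM (log axis) of 14 named members in each library, with the mean (dash) and SD (bar) of 3 WT (blue) and 3 AEG-1 KO (red) libraries. The 9 members left of the dotted line were called; in 8 of them every red point lies above every blue one, and in Zfp811 every red point, from 65.3 to 79.7 CPM, lies below the blue ones, from 85 to 95.1 CPM.

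The 5 members with the highest mean CPM had log2 fold changes from -0.09 (Zfp207) to 0.01, and none was called in the main fit. They were Zfp106, which binds RNA, Zfp207, Zfp91, a ubiquitin ligase of NF-kB signalling, Zfp710 and Zfp281, a repressor known from stem cells. Zfp106 had 245, 252 and 254 CPM in WT against 253, 261 and 246 CPM in AEG-1 KO, with overlapping groups (log2 fold change 0.01 ± 0.04 SE, edgeR adjusted p = 0.884). Zfp91, Zfp710 and Zfp281 stood at log2 fold changes of -0.02, -0.06 and -0.06, also not called (edgeR adjusted p = 0.818, 0.771 and 0.461). Zfp710 had 181, 159 and 131 CPM in the WT libraries, a spread wider than its difference between genotypes. Per kilobase of exon the order was different, with Zfp281 at 28.9, Zfp207 at 27.5, Zfp263 at 27.5, Zfp106 at 24.2, Zfp710 at 22.2 and Zfp91 at 17.1 CPM per kilobase.

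By level, the median log2 fold change was 0.11 in 51 members at a mean CPM of 5 to 10, 0.14 in 76 at 10 to 20, 0.09 in 54 at 20 to 50 and 0.05 in 27 at 50 or more. In the same order 41, 73, 45 and 18 were above 0. Across the 208 members Spearman's rho of log2 fold change with mean CPM was -0.172. Members share libraries, so this and the other correlations here are descriptions.

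At the edge of the rule, Zfp235, Zfp983 and Zfp772 lay just inside, at mean CPM of 5.04, 5.06 and 5.09, with log2 fold changes of 0.35, 0.00 and 0.13. Zfp101, Zfp420 and Zfp229 lay just outside, at 4.97, 4.94 and 4.82, with -0.03, 0.03 and 0.29. Zfp36, which encodes tristetraprolin, a protein that binds AU-rich messages and hastens their decay, had 181 ± 24.1 CPM in WT against 177 ± 10.6 CPM in AEG-1 KO (SD, n = 3), a difference of -0.04 on log2 scale (adjusted p = 0.864 by edgeR). Zfp706 had 90.4 ± 5.84 and 97 ± 3.79 CPM (log2 fold change 0.10, edgeR adjusted p = 0.335). Neither of these excluded genes was called.

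With all 6 libraries, more of the members with a KRAB pattern lay above 0. Of 104, 98 had a log2 fold change above 0, with a median of 0.12, and 3 were called higher and 1 lower. Of the 104 without, 79 were above 0, with a median of 0.09, and 5 were called higher and 0 lower by edgeR, with 25 higher and 2 lower at an unadjusted p under 0.05 and 6 and 0 called by DESeq2. With the pattern these counts were 33 and 1 at an unadjusted p under 0.05 and 4 and 1 by DESeq2. Over all genes, edgeR called 3.31% higher and 3.04% lower, so the calls higher in both groups were near the background. At an unadjusted p under 0.05 the shares of all genes were 11.2% and 10.3%. DESeq2 called 1266 genes in all, 601 of them higher. The difference between these groups of members was not tested, and it depended on single libraries. Without WT replicate 1 the medians were 0.0911 with the pattern and 0.0905 without it, with 85 and 83 of 104 above 0, and without AEG-1 KO replicate 1 they were 0.1191 and 0.1112. The groups also differed in transcript GC content, at 40.6% and 49.7%. With the trend on length and GC content removed, 80 and 69 of 104 were above 0, with medians of 0.067 and 0.035. By finger number the median was 0.11 for each of 45 members with 0 to 5 fingers, 80 with 6 to 11 and 83 with 12 or more. In the same order 33 (73.3%), 71 (88.8%) and 73 (88%) were above 0. There are 3 members with well known targets, named for their function after the values were seen. Zfp809, which silences a retroviral primer binding site, Zfp568, which represses a placental Igf2 transcript, and Zfp445, which guards imprints, lay at -0.12, 0.10 and -0.0012 on the log2 scale, none called (edgeR adjusted p = 0.448, 0.402 and 0.993).

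Library by library, the members' median deviation from each gene's mean over the 6 libraries was -0.08, -0.07 and -0.01 on the log2 scale in WT replicates 1 to 3 against 0.05, 0.09 and 0.02 in AEG-1 KO replicates 1 to 3. Groups did not overlap, but WT replicate 3 and AEG-1 KO replicate 3 were close. Between those 2 libraries 111 of 208 members were higher in AEG-1 KO, with a median difference of 0.02, while in the other 8 pairs of libraries 150 to 172 were higher. Among members with a KRAB pattern the 2 libraries overlapped. The median deviation was -0.12, -0.09 and 0.02 in WT and 0.08, 0.11 and 0.00 in AEG-1 KO, so that WT replicate 3 lay above AEG-1 KO replicate 3. Members without the pattern did not overlap, at -0.01, -0.04 and -0.04 in WT and 0.02, 0.05 and 0.04 in AEG-1 KO. Without both of these libraries, a choice made after the data were seen, the median log2 fold change was 0.20 with the pattern and 0.04 without it. The edgeR quasi-likelihood test then called 26 members higher (12.5%, against 3.46% of the 16198 genes tested) and 0 lower (against 3.56%).

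**Figure D3:**
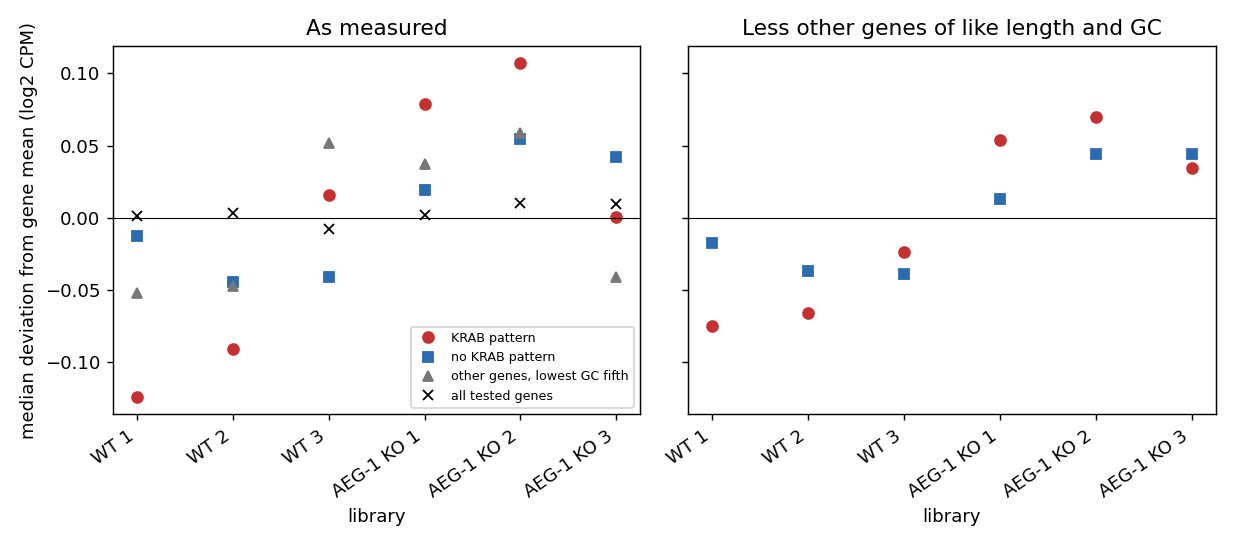
Median deviation from the gene's mean (log2 CPM, y axis) in each library (x axis) for members with (red) and without (blue) a KRAB pattern, for other genes in the lowest quintile of GC content (grey) and all tested genes (crosses); the right panel subtracts, in each library, the median of other genes of like length and GC. On the left the red point of WT replicate 3 (0.02) lies above that of AEG-1 KO replicate 3 (0.00); on the right all WT points are below 0 and all AEG-1 KO points above 0.

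Transcript length and GC content were then set beside the shift. The members' longest transcripts had a median of 3717 bases and 44.3% GC, against 2953 bases and 49.6% GC in the other genes at 5 CPM or more with a transcript sequence. In those other genes, the median log2 fold change was -0.04 in the shortest quintile and 0.02 in the longest. By GC quintile, from lowest to highest, their medians were 0.03, -0.01, -0.01, -0.01 and 0.01. Members exceeded them in each quintile of GC, with medians of 0.14, 0.11, 0.04, 0.11 and 0.09, and in each quintile of length, with medians of 0.09 to 0.12. Of the members, 103 fell in the lowest GC quintile, at 44.1% or less, and 98 of these were above 0.

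Within the lowest quintile the other genes were graded too. Below 38% GC the 139 other genes had a median log2 fold change of 0.08 and 73.4% of them were above 0, while the 22 members had a median of 0.14 and 22 were above 0. From 38% to 40% the medians were 0.05 in 347 other genes and 0.19 in 28 members, and from 40% to 42% they were 0.04 in 621 and 0.14 in 32. At 56% or more they were 0.02 in 1725 other genes and 0.09 in 27 members. Across the members, Spearman's rho of log2 fold change was -0.255 with GC content, 0.021 with transcript length, 0.028 with the length of the 3′ untranslated part and 0.05 with finger number.

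**Figure D4:**
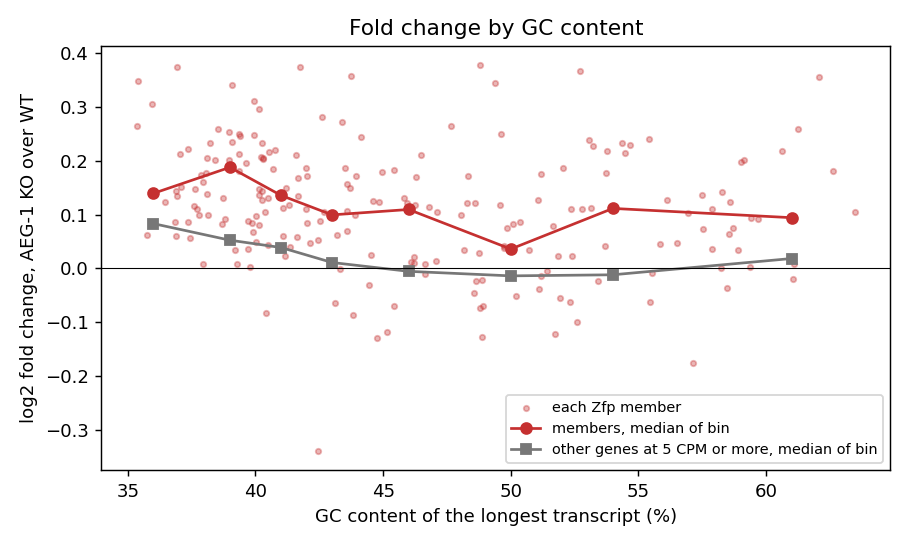
Log2 fold change of AEG-1 KO over WT (y axis), by GC content of the longest transcript (percent, x axis) for each of 208 members (small points), with medians by GC bin of the members (red line) and of other genes at 5 CPM or more (grey line). The red line lies above the grey one in every bin, by 0.05 to 0.14, and both are higher below 42% GC than near 50%.

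When each member was set against the median of other genes in its own quintile of length and quintile of GC (22 combinations in use, with at least 232 other genes each), the median difference was 0.09 and 167 of 208 members lay above. Taken in the same way within each library, the members' medians were -0.06, -0.05 and -0.03 in WT replicates 1 to 3 against 0.04, 0.05 and 0.04 in AEG-1 KO replicates 1 to 3. Members with a KRAB pattern then lay at -0.08, -0.07 and -0.02 in WT and 0.05, 0.07 and 0.03 in AEG-1 KO, so that their groups no longer overlapped. The other genes of the lowest GC quintile had medians of -0.05, -0.05 and 0.05 in WT and 0.04, 0.06 and -0.04 in AEG-1 KO, with WT replicate 3 above AEG-1 KO replicate 3 as in the uncorrected KRAB members. With a smooth trend on length and GC removed from each library in the fit, which takes out any difference that follows these properties whatever its source, the members' median log2 fold change was 0.06 and 149 of 208 were above 0. The edgeR test then called 22 members higher (10.6%, against 6.35% of all genes) and 4 lower (1.92%, against 8.59%). Calls over all genes went from 1023 to 2407 with this correction. Of the members, 8 of the 9 called without the correction were called with it; Zfp945 was not.

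By place, the medians on the chromosomes with most members were 0.10 for 47 members on chromosome 7, 0.15 for 30 on chromosome 17 and 0.15 for 16 on chromosome 13. Other tested genes of these chromosomes had medians of 0.01, 0.01 and 0.04. All 16 members of chromosome 13 were above 0. A row of neighbouring members there, from Zfp759 at 67121660 to Zfp65 at 67705309, includes Zfp953, and the other 9 within 500 kb of it had log2 fold changes of 0.10 to 0.34 with none called. Among these, Zfp456, Zfp748, Zfp738 and Zfp65 had all AEG-1 KO libraries above all WT libraries (edgeR adjusted p = 0.155, 0.124, 0.0829 and 0.085). The same held for 24.5% of all members and 13.9% of all genes. Tested Zfp genes under 5 CPM within 500 kb of Zfp953 had log2 fold changes from 0.05 (Zfp493) to 0.18 (Zfp458). Their groups overlapped and none was called. Some members of the row hold stretches nearly identical to stretches of other genes, with 23 such genes for Zfp738 and 0 for Zfp759. Whether those genes lie in the row was not examined. On chromosome 7, the 3 members beside Zfp61, Zfp235, Zfp111 and Zfp180, stood at 0.35, 0.27 and 0.04 on the log2 scale, not called (edgeR adjusted p = 0.0742, 0.0984 and 0.754). The 7 tested Zfp genes under 5 CPM in the same stretch ran from -0.56 (Zfp428, edgeR adjusted p = 0.182) to 0.60 (Zfp93), with Zfp109 at 0.02 and Zfp94 at -0.03. Members within 500 kb of another had a median of 0.13 (112 of 122 above 0) and the rest 0.07 (65 of 86).

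Members that share sequence with other genes were described apart. Near-identical stretches (95% identity over at least 100 bases) with other genes were found in 78 members, and an exon overlap with another gene in 61, of which 49 had one on the other strand. The search for stretches covered both strands and did not leave out overlapping genes, so that an overlap can be counted as both. The 112 members with neither had a median log2 fold change of 0.10, with 94 above 0 and 4 called higher and 1 lower, and the 96 with either had a median of 0.12, with 83 above 0.

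Genes outside the rule gave values to set beside these. The 111 tested Zfp genes under the mean CPM of 5 had a median log2 fold change of 0.12, with 84 above 0 and 2 called higher. These were Zfp93, which lies in the row of Zfp61, and Zfp59, with log2 fold changes of 0.60 and 0.37 (adjusted p = 0.0311 and 0.0499 by edgeR), named after their values were seen. The 145 other genes with 3 or more fingers at 5 CPM or more had a median of 0.05, with 98 (67.6%) above 0 and 5 called higher and 4 lower, and those higher include Zkscan17, Zbtb38 and Klf10. Genes with a KRAB pattern, fingers and another symbol, 33 at 5 CPM or more, had a median of 0.11, with 25 above 0 and 0 called by edgeR (8 higher and 0 lower at an unadjusted p under 0.05, and 1 higher by DESeq2). The 18 Zscan and Zkscan genes, whose proteins pair fingers with a SCAN dimerization domain, had a median of 0.12 with 16 above 0. Of these Zkscan17 rose from 12.3 ± 0.674 to 16.5 ± 0.617 CPM (SD, n = 3), a log2 fold change of 0.42 ± 0.07 (SE, edgeR adjusted p = 0.00659), while Zkscan14 and Zkscan4, at 0.28 and 0.38, did not pass (edgeR adjusted p = 0.0646 and 0.0934).

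Zbtb genes, whose proteins pair fingers with a BTB domain, had a median of 0.07 over 32 genes, with 24 above 0 and 1 called. That gene, Zbtb38, which binds methylated DNA, rose by a log2 fold change of 0.24 ± 0.05 (SE, edgeR adjusted p = 0.0174), and Zbtb21 and Zbtb18 had 0.12 and -0.11 (edgeR adjusted p = 0.153 and 0.163). Over 15 Klf and Sp genes, short finger proteins that bind GC-rich promoters, the median was 0.02, with Klf10 called higher (log2 fold change 0.22, edgeR adjusted p = 0.0172). The 16 Zc3h genes, with CCCH fingers that mostly bind RNA, had a median of 0.005 and 0 calls by edgeR (0 higher and 1 lower at an unadjusted p under 0.05, and 1 lower by DESeq2), and Zc3h12a, the RNase Regnase-1, had -0.20 (edgeR adjusted p = 0.0784). The 64 Rnf genes of RING finger ubiquitin ligases had a median of 0.03, with 3 called higher and 1 lower, the 3 with the smallest p being Rnf150 at 0.73, Rnf19a at -0.41 and Rnf167 at 0.24 (edgeR adjusted p = 0.000731, 0.00142 and 0.032). Klf10 and Rnf19a lie on chromosome 15, which also holds Mtdh, the gene knocked out. Whether that place bears on their values was not tested. The Zscan and Zkscan, Zbtb, Klf and Sp, Zc3h and Rnf series were taken with no minimum CPM. At 5 CPM or more their medians were 0.11 (14 genes), 0.06 (28), 0.02 (13), 0.005 (14) and 0.02 (56) in that order. No test compared these series with the Zfp members.

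In the main edgeR fit, the partners that KRAB proteins work through were not called. Over all genes 6.35% were called, a share at which a list of 37 would hold few. The corepressor and heterochromatin list had 37 tested genes, which include Trim28, Setdb1 and the heterochromatin protein genes. Of these, 15 had a log2 fold change above 0 and the median was -0.01. Calls numbered 0 at an edgeR adjusted p under 0.05 and 0 by DESeq2 or limma-voom. At an unadjusted edgeR p under 0.05, 1 gene lay higher and 2 lower. With the length and GC trend removed 3 were called lower, against 8.59% of all genes. The smallest p in the list belonged to Mta2, a subunit of the NuRD complex, at 174 ± 4.75 CPM in WT against 159 ± 4.62 CPM in AEG-1 KO (SD, n = 3), a log2 fold change of -0.14 ± 0.04 (SE, edgeR adjusted p = 0.0961). Trim24 and Chd3 followed, at 0.15 and -0.13 (edgeR adjusted p = 0.151 and 0.157).

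**Figure D5:**
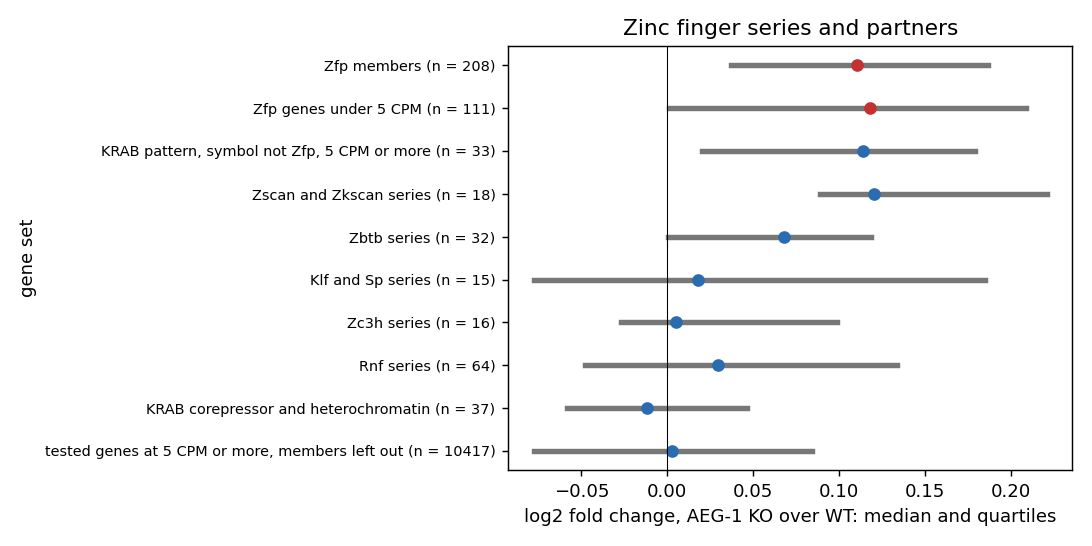
Median (point) and quartiles (bar) of the log2 fold change of AEG-1 KO over WT (x axis), for Zfp genes (red) and other gene sets (blue), with the number of tested genes. The Zscan and Zkscan, Zbtb, Klf and Sp, Zc3h, Rnf and corepressor sets had no minimum CPM. Medians of the Zfp members (0.11), Zfp genes under 5 CPM (0.12), other KRAB genes (0.11) and Zscan and Zkscan genes (0.12) lie to the right; those of the corepressor list (-0.01), Zc3h genes (0.005) and all other genes at 5 CPM or more (0.00) lie near 0.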

How the data were processed

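Read counts per Ensembl gene were used as the authors deposited them, 1 column per library, with whole numbers and no normalization. The submitters' processing notes list edgeR 3.18.1, featureCounts 1.4.6-p4, Subread, cutadapt 1.9 and FastQC 0.11.2, with GRCm38 and mm10 as builds, and no role or order. Which annotation release, strand setting or rule for multiply matching reads was used is not given in the sources used here. Of 46983 identifiers, 46488 matched GENCODE mouse release M21 (GRCm38). 1 CPM was 42.5 to 58.9 reads.

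After filterByExpr (minimum count of 10) and TMM scaling, the quasi-likelihood test of edgeR 4.0.16 was run in R 4.3.3 on a model of genotype alone, with adjusted p under 0.05 over 16115 genes. A standard error is the size of the log2 fold change divided by the root of F; log2 CPM used a prior count of 2. Length and GC content are those of the longest transcript. The length and GC trend was fitted per library with mgcv 1.9.3 and entered as offsets. Copies were sought with BLAST+ 2.17.0. The fit was tested on simulated data. Replicates differed by more than sampling noise (chi-square per degree of freedom 5.57 to 19.2).

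Members and lists were chosen with earlier results of these data known. Named genes were Mtdh, the members called, the members with the smallest p up to 6 in each direction, the 5 with the highest mean CPM, those at the edge of the rule, and up to 3 per list with the smallest p; others are marked. Alternatives were other scaling (RLE, upper quartile, none), no or a stricter filter, DESeq2 1.42.0, limma-voom (limma 3.58.1), a replicate block, trend removal, other thresholds and each library left out.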

Additional observations from a re-analysis of the deposited data

How the results depend on the processing

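The median log2 fold change of the members stayed above 0 in every fit, from 0.10 to 0.11 over RLE, upper-quartile and no scaling factors, other filters, DESeq2 and limma-voom, with the all-gene median at 0.00 to 0.01, and from 0.09 to 0.13 without 1 library. It was 0.0577 with the length and GC trend removed, and 0.0561 with that and the replicate block. The edgeR count over all genes was 1023, with 227 with the replicate block, 2407 with the trend removed, 393 at an adjusted p of 0.01, and 380 to 1094 without 1 library. Members called higher were 0 with the replicate block, 22 with the trend removed, 3 with the trend removed and the block, 1 at an adjusted p of 0.01, 5 at a mean CPM of 10 or more, 4 among members with no overlap and no near-identical gene, and 1 to 16 without 1 library. Members called lower were 0 with the block, 4 with the trend removed, 0 at an adjusted p of 0.01 and 0 to 1 without 1 library. Without WT replicate 3 and AEG-1 KO replicate 3, chosen after seeing the data, they were 26 higher and 0 lower, with 1137 genes called in all. Except for the smaller member sets and the stricter threshold, the cause was not tested.

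All 9 calls were lost with the replicate block. The labels do not say whether replicate numbers pair the libraries. Same-numbered libraries had correlations of deviations from their group means of -0.274, -0.173 and -0.251, and none correlated best with its own number. With 3 libraries a genotype that also differ by GC content, these values cannot decide whether the libraries were paired. Uncalled members changed sign: leaving out 1 library each, Zfp106 ranged from -0.0135 (without WT replicate 1, and also without AEG-1 KO replicate 2) to 0.0275, Zfp91 from -0.0503 to 0.0003 (without WT replicate 3), Zfp710 from -0.1802 to 0.0395 (without WT replicate 1) and Zfp983 from -0.0636 to 0.0823. Zfp983, at 0.00, was at -0.0059, -0.0030 and -0.0081 with RLE factors, upper-quartile factors and DESeq2, -0.0109 and -0.0024 with no and the stricter filter, -0.0857 and -0.0850 with the trend removed, without and with the block, and -0.0636 to -0.0132 without any 1 of replicates 1 and 2 of either genotype. At the low end a member had 183 reads in a library, which limits what single low members can show.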

Other observations

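With the trend on length and GC content removed, edgeR called 26 members, in a fit where calls over all genes also rose, from 1023 to 2407. Among these members, Zfp24, a SCAN and finger protein, had a log2 fold change of 0.15 ± 0.03 (SE, edgeR adjusted p = 0.0158). Zfp110 and Zfp516 had 0.20 and 0.21 (edgeR adjusted p = 0.0183 and 0.0284). Without the removal they were at 0.22, 0.21 and 0.22 and did not pass (edgeR adjusted p = 0.0642, 0.0784 and 0.13). These 3 genes were chosen after their values were seen.

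Libraries differed in reads by GC content within each genotype. In the highest GC quintile of other genes at 5 CPM or more, median deviations from the gene mean were 0.11, 0.02 and -0.15 on the log2 scale in WT replicates 1 to 3 against -0.05, 0.00 and 0.09 in AEG-1 KO replicates 1 to 3. Members numbered 31 in that quintile and were at 0.16, -0.02 and -0.24 in WT and -0.07, 0.04 and 0.16 in AEG-1 KO.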
